A study of Arabidopsis thaliana with 57 samples.

Results

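Transcripts of 10 stress-responsive WRKY transcription factors were followed in leaves of Arabidopsis thaliana plants that stood alone, touched other plants, or stood in a touching chain of which 1 leaf was lit strongly. The 10 genes are a named list (WRKY6, WRKY11, WRKY18, WRKY33, WRKY40, WRKY46, WRKY53, WRKY54, WRKY60 and WRKY70) among the 32824 gene identifiers of each deposited table. All 10 passed the filter on low values in both tables. The contact experiment compared plants touching for 1 h and plants touching for 1 week with individual plants, all of the wild type Col-0 and without stress. The chain experiment used 2 kinds of chain of 3 touching plants, WT-hpca1-WT with an hpca1-1 mutant in the middle, and 3WT with wild-type plants throughout. In each kind, leaves were taken at 4 positions (local, systemic 1, systemic 2 and systemic 3), either after 30 min of elevated light (2000 µmol of photons per square metre and second) on the local leaf of a wild-type plant, or from control chains. The labels give hpca1-1 as the genotype sampled at systemic leaf 2 when the middle plant was the mutant, and Col-0 for all remaining leaves. All plants had been grown for 4 to 5 weeks at a light level of 50 in the same unit on a short day. Each of the 19 groups had 3 libraries, each made from leaves of 10 to 15 pooled plants, so the spread between libraries is a spread between pools. Leaves that had to touch were wetted with phosphate buffer holding Silwet L-77 and agarose, so contact and this solution cannot be told apart in the contact experiment. The labels give neither the age of each group at harvest nor the time of day, so duration of contact and age cannot be told apart either.

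WRKY proteins are plant transcription factors named for a short conserved run of amino acids in their DNA-binding domain, which contacts W-box elements with a TTGAC core. Many are switched on within minutes of a pathogen signal, wounding or oxidative stress. Mitogen-activated protein kinases phosphorylate some of them, and WRKY factors bind W-boxes in the promoters of other WRKY genes, so that the family forms a network with activating and repressing members. HPCA1, the gene mutated in hpca1-1, encodes a leucine-rich-repeat receptor kinase that senses hydrogen peroxide outside the cell.

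WRKY18, WRKY40 and WRKY60 form the group IIa trio, leucine-zipper WRKYs that bind each other and modulate basal defence and abscisic acid responses. WRKY33, of group I, is a substrate of MPK3 and MPK6 and is needed for camalexin synthesis and resistance to necrotrophic fungi. WRKY6, of group IIb, is linked to senescence and defence, and WRKY11, of group IId, is a negative regulator of basal resistance. WRKY46, WRKY53, WRKY54 and WRKY70 belong to group III: WRKY53 promotes leaf senescence, WRKY54 and WRKY70 restrain it, and WRKY70 acts downstream of salicylic acid. In the RefSeq annotation of the TAIR10.1 assembly, WRKY40 (AT1G80840) lies at chr1:30383561-30385499 on the plus strand, WRKY18 (AT4G31800) at chr4:15382777-15385100 on the plus strand and WRKY60 (AT2G25000) at chr2:10629662-10631413 on the plus strand. WRKY33 (AT2G38470) lies at chr2:16108235-16110766 on the plus strand, WRKY6 (AT1G62300) at chr1:23016569-23019494 on the minus strand and WRKY11 (AT4G31550) at chr4:15289788-15291934 on the minus strand. The group III genes all lie on the minus strand, WRKY46 (AT2G46400) at chr2:19043411-19044955, WRKY53 (AT4G23810) at chr4:12392370-12393982, WRKY54 (AT2G40750) at chr2:17000419-17002528 and WRKY70 (AT3G56400) at chr3:20908711-20910623.

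The 300 bases before the annotated gene start are shown for the group IIa trio and WRKY33, because WRKY18, WRKY33 and WRKY40 rose both at 1 h of contact and in lit leaves, while WRKY60, a partner of WRKY18 and WRKY40, was called higher in neither. Sequences are given 5′ to 3′ on the strand of the gene, read from TAIR10.1, and capitals mark TTGAC or its reverse complement GTCAA. They span chr1:30383261-30383560 for WRKY40, chr4:15382477-15382776 for WRKY18, chr2:10629362-10629661 for WRKY60 and chr2:16107935-16108234 for WRKY33, all on the plus strand.
WRKY40: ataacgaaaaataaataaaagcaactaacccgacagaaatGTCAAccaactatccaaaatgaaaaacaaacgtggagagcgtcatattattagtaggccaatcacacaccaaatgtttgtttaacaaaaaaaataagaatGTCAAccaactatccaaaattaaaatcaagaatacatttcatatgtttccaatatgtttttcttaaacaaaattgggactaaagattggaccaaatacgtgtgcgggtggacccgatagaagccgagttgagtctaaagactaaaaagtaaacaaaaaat
WRKY33: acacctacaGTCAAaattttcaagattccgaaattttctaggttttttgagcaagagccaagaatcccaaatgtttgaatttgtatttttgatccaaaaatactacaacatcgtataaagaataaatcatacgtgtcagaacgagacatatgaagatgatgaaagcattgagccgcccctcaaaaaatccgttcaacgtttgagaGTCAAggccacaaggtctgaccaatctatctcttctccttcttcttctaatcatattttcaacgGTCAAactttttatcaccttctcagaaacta
WRKY18: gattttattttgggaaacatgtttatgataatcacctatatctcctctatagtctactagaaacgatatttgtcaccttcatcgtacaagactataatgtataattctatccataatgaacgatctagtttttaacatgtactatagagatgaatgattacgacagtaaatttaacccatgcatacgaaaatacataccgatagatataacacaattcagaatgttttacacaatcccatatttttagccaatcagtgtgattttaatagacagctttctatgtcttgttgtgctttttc
WRKY60: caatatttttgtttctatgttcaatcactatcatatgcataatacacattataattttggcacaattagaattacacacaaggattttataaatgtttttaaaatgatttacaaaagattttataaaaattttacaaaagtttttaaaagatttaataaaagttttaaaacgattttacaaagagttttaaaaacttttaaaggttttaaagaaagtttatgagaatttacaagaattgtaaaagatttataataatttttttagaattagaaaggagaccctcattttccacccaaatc
The WRKY40 window holds TTGAC 2 times, both on the strand opposite to the gene, 260 to 256 and 160 to 156 bases before the gene start. The WRKY33 window holds it 3 times, also on the opposite strand, with the nearest copy 31 to 27 bases before the gene start, and the WRKY18 and WRKY60 windows hold none. Over the 10 genes, 7 windows held TTGAC on either strand, against 50.4% of 27443 such windows of protein-coding genes, and 4 held it at least 2 times, against 17.9%. WRKY11 and WRKY33 held it 3 times, which 5.07% of all windows reach. TTGACC and TTGACT, which both contain TTGAC, were each found in 2 of the 10 windows, against 14% and 21.9% of all windows. CGCGTT, the rapid stress response element, and CACGTG, the G-box, were found in none of the 10 windows, against 3.08% and 7.09% of all windows. These matches describe letters in a window and not bound sites.

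Values were FPKM (fragments per transcript length and sequencing depth), which are already scaled per length. Tests were made with limma on log2(FPKM + 1) over every gene that reached 1 FPKM in 3 or more libraries, which kept 17177 genes of the contact experiment and 18735 of the chain experiment. Every fold change is on that scale, which understates changes of low genes, and a gene is said to be called at a Benjamini-Hochberg adjusted p under 0.05. Leaf genes such as RBCS1A were abundant in every library, and the root and flower markers did not pass 0.73 FPKM. HPCA1 itself had 24.2 to 33.3 FPKM in the 6 hpca1-1 libraries, against 43.4 to 61.4 FPKM in 42 libraries of wild-type leaves, without overlap. Relative depth, estimated from the steps between low values, ran from 0.801 to 1.24 of the median for contact libraries and from 0.806 to 1.35 for chain libraries. In the chain table, replicate 3 of the WT-hpca1-WT control at systemic leaf 3 differed most from its own replicates (SD of the log2 difference 0.34, against a median of 0.275 over the table), and results for the WRKY genes named at that leaf are given with and without it.

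The contact comparisons set plants made to touch, with the wetting solution and without stress, against individual plants. At 1 h of contact, 8 of the 10 WRKY genes were higher than in individual plants and none was lower, where 14.7% of all genes tested were called in either direction and 9.02% were called higher. The median log2 fold change of the 10 was 1.5, against -0.023 over all genes tested. At 1 week 8 of the 10 were again higher and none lower, with 14.8% of all genes called and 9.56% called higher, and the median of the 10 was 0.63, against 0.026 over all genes. Both contact times are set against the same individual plants, so the pair of counts is not independent. The members behind the counts differed: WRKY6 and WRKY60 were called at 1 week and not at 1 h, and WRKY46 and WRKY53 at 1 h and not at 1 week. Set directly against each other, all 10 genes differed between 1 week and 1 h, with WRKY6 and WRKY60 higher at 1 week and the other 8 lower, where 22.1% of all genes were called.

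WRKY40 had the largest response to 1 h of contact in the set. It had 14.5, 13.3 and 12.9 FPKM after 1 h, against 0.561, 0.464 and 0.267 FPKM in individual plants. Every touched library lay far above every individual one, a 31.5-fold ratio of mean FPKM and 3.35 ± 0.16 on the log2 scale (SE, adjusted p = 1.17e-07 with limma). After 1 week it had 0.819, 1.01 and 1.80 FPKM, above the individual plants without overlap but with a log2 change of -2.74 ± 0.16 (adjusted p = 4.38e-07) relative to 1 h. The rise over individual plants at 1 week was 0.61 (adjusted p = 0.0295). It was no longer called without replicate 3 of the 1-week group (0.42, adjusted p = 0.0701), nor without individual replicate 2 or 3.

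WRKY18, the second member of the trio, had 16.9, 12.4 and 17.5 FPKM after 1 h and 7.93, 9.76 and 7.57 FPKM after 1 week, against 2.24, 1.87 and 1.76 FPKM in individual plants. No library of one group overlapped another, and the log2 fold changes against individual plants were 2.48 ± 0.14 at 1 h (adjusted p = 2.58e-07) and 1.67 ± 0.14 at 1 week (adjusted p = 1.1e-05). WRKY60, the third, had 4.73, 4.36 and 3.57 FPKM after 1 week, against 1.04, 1.02 and 1.48 FPKM in individual plants. All 3 libraries of the 1-week group lay above all others, with a log2 fold change of 1.26 ± 0.14 over individual plants (adjusted p = 9.95e-05) and of 1.43 ± 0.14 over 1 h (adjusted p = 2.13e-05). At 1 h WRKY60 had 0.986, 0.926 and 0.892 FPKM, all below the individual plants, a difference of -0.16 ± 0.14 that was not called (adjusted p = 0.514).

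WRKY6 shared the late pattern of WRKY60. It had 2.07, 2.03 and 1.36 FPKM after 1 h and 5.44, 5.83 and 5.93 FPKM after 1 week, against 1.49, 1.41 and 0.997 FPKM in individual plants. The 1-week libraries stood apart from the others, 1.55 above individual plants (adjusted p = 2.18e-05) and 1.27 above 1 h (adjusted p = 5.93e-05), while the 1 h and individual libraries overlapped (0.29 ± 0.14, adjusted p = 0.217). WRKY33, the camalexin regulator, had 29.7, 29.1 and 28.8 FPKM after 1 h, against 4.42, 3.82 and 5.34 FPKM in individual plants. The touched libraries were within 1 FPKM of each other and 6.45-fold above the individual mean (2.46 ± 0.11, adjusted p = 5.07e-08). After 1 week WRKY33 had 9.64, 7.64 and 9.23 FPKM, still above individual plants by 0.83 ± 0.11 (adjusted p = 0.000354) and below 1 h by a log2 change of -1.62.

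WRKY11 was the second most abundant of the 10 in individual plants and the one whose level changed least among those called at 1 h. It had 27.3, 24.7 and 25.7 FPKM after 1 h, against 15.6, 15.7 and 15.1 FPKM in individual plants (0.70 ± 0.059, adjusted p = 7.95e-06). Its rise at 1 week, 0.22 (adjusted p = 0.0306), was no longer called when any individual library, or replicate 2 or 3 of the 1-week group, was left out (adjusted p up to 0.091). In group III, WRKY70 had 62.1, 64.0 and 63.7 FPKM after 1 h and 35.6, 35.5 and 37.1 FPKM after 1 week, against 23.5, 23.2 and 21.5 FPKM in individual plants. The groups were fully separated, with log2 fold changes of 1.44 ± 0.047 at 1 h (adjusted p = 6.65e-09) and 0.64 ± 0.047 at 1 week (adjusted p = 4.77e-06). WRKY54, its close relative, had log2 rises of 1.37 at 1 h and 0.62 at 1 week, with 20.0 ± 1.24 FPKM at 1 h and 11.5 ± 1.27 FPKM at 1 week against 7.14 ± 1.20 FPKM in individual plants (SD, n = 3 each).

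WRKY46 and WRKY53 rose at 1 h and were lower again at 1 week than at 1 h. WRKY46, which acts in basal resistance, had 5.97, 6.60 and 6.91 FPKM after 1 h, against 1.26, 1.04 and 1.14 FPKM in individual plants (1.80 ± 0.16, adjusted p = 1.18e-05). After 1 week it had 0.797, 1.77 and 1.49 FPKM, a range that overlaps the individual plants (0.11 ± 0.16, adjusted p = 0.703). WRKY53, the senescence promoter, had 4.67, 3.83 and 2.91 FPKM after 1 h, against 0.314, 0.992 and 0.613 FPKM in individual plants (1.55 ± 0.18, adjusted p = 0.000139). After 1 week it had 1.31, 1.46 and 1.12 FPKM, above the individual plants in 3 of 3 libraries but not called (0.50 ± 0.18, adjusted p = 0.1).

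**Figure D1:**
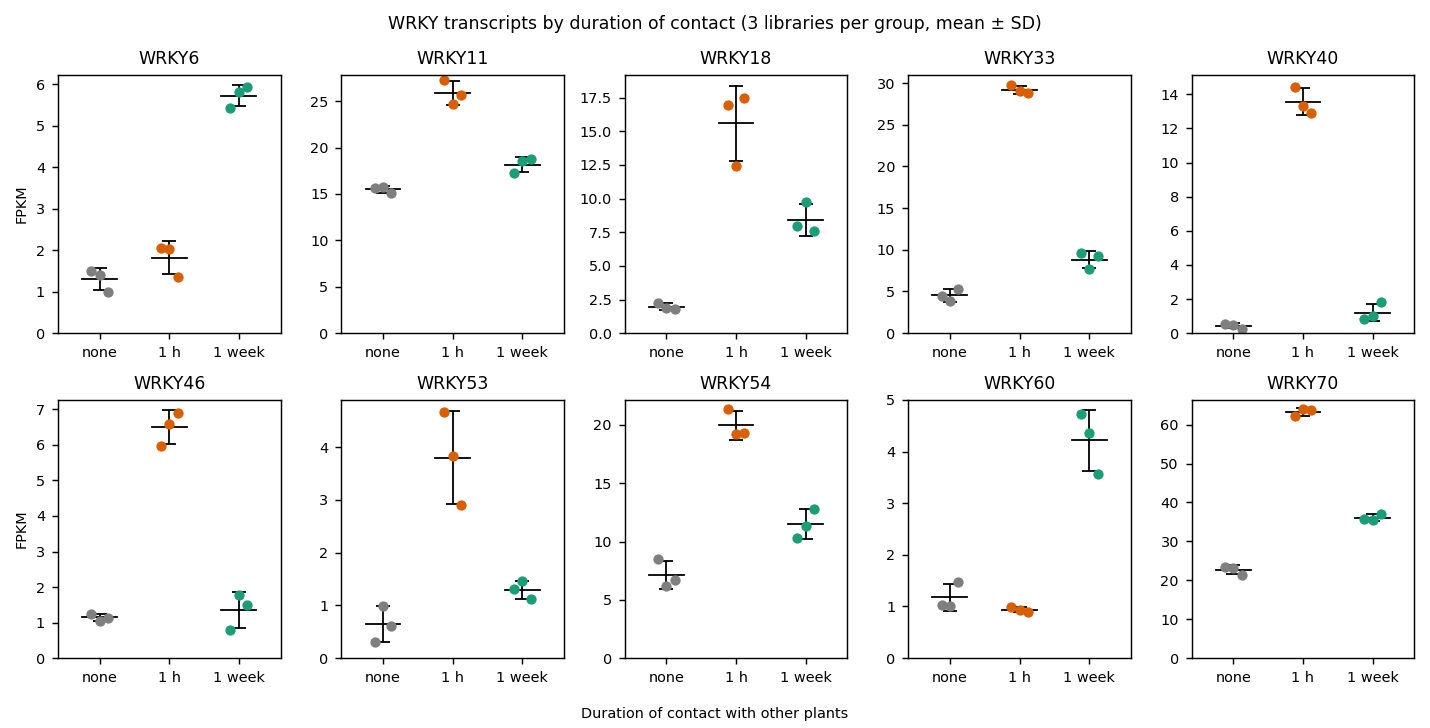
FPKM of each WRKY gene (y axis, from 0) in individual plants and after 1 h and 1 week of contact (x axis); points are libraries, horizontal lines means and bars 1 SD of 3 libraries. WRKY40, WRKY33, WRKY46 and WRKY53 are highest at 1 h, and WRKY6 and WRKY60 are highest at 1 week, with WRKY60 at 4.73, 4.36 and 3.57 FPKM there.

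Genes that act with these factors were examined as lists, where 14.7% of all genes were called at 1 h and 14.8% at 1 week. Of 13 genes of the MAP kinase cascade upstream of WRKYs, 8 rose and none fell at 1 h of contact (median log2 fold change 0.61, against -0.023 over all genes). MPK3, the kinase that phosphorylates WRKY33, averaged 129 ± 1.49 FPKM in plants touching for 1 h, against 26.8 ± 1.24 FPKM in individual plants (SD, n = 3 each), which is 2.23 ± 0.050 (SE) on the log2 scale, and the adjusted p from limma was 3.47e-10. MKK4, a kinase kinase of MPK3, and AP2C1, a phosphatase that acts on it, rose by 1.04 ± 0.10 and 1.16 ± 0.14 (log2). Of 6 VQ-motif proteins, small partners of WRKY factors, 3 rose at 1 h and none fell, SIB1, a partner of WRKY33, by 1.72 ± 0.085. That count was 1 without replicate 1 of the 1 h group. SIB1 had 17.4 ± 0.906 FPKM after 1 h and 8.90 ± 0.917 FPKM after 1 week, against 4.60 ± 0.264 FPKM in individual plants.

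Of 11 tested salicylate genes 8 rose and none fell at 1 h, with the transcription factors SARD1 and CBP60g, which switch on salicylate synthesis, up by 2.40 ± 0.12 and 2.14 ± 0.11. At 1 week 4 rose, and PR1, an antimicrobial protein used as a salicylate marker, had 26.4 ± 4.20 FPKM, against 2.06 ± 0.998 FPKM in individual plants. Of 8 camalexin and ethylene genes downstream of WRKY33, 2 rose and 1 fell at 1 h. ACS6, which makes the ethylene precursor, rose by 1.87 ± 0.10, while GSTF6, a glutathione transferase of camalexin synthesis, fell to 40.0 ± 1.29 FPKM at 1 h, against 88.2 ± 2.94 FPKM in individual plants. At 1 week, when WRKY6 and WRKY60 were high, 5 of 6 tested leaf senescence genes rose and none fell (median 1.15, against 0.026). SAG13, a senescence-associated gene, averaged 83.4 ± 9.03 FPKM in plants touching for 1 week, against 0.893 ± 0.131 FPKM in individual plants (SD, n = 3 each), which is 5.47 ± 0.14 (SE) on the log2 scale, and the adjusted p from limma was 7.37e-10. ORE1, a NAC factor that drives senescence, had 5.13 ± 0.939 FPKM, against 0.353 ± 0.162 FPKM. Of 26 tested other WRKY genes, 4 rose and 1 fell at 1 h, WRKY22, WRKY15 and WRKY25 by 1.72 ± 0.14, 1.58 ± 0.084 and 1.54 ± 0.080, and 10 rose and none fell at 1 week. Their median at 1 h was 0.027, against -0.023 over all genes, of which 14.7% were called. Clock genes, which follow the time of day, were counted too: 1 of 8 rose and 1 fell at 1 h, TOC1 by 0.70 ± 0.093, and 5 rose at 1 week (4 without replicate 2 of the individual plants and 3 without any other of the 6 libraries). The median of the clock genes was -0.041 at 1 h, near that of all genes, and 0.24 at 1 week, against 0.026. Their part in the WRKY changes was not tested.

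The levels of the 10 genes spanned a wide range. In individual plants WRKY70 was highest at 22.7 ± 1.1 FPKM, followed by WRKY11 at 15.5 ± 0.334, WRKY54 at 7.14 ± 1.20 and WRKY33 at 4.53 ± 0.768, and these 4 did not overlap. WRKY18 came next at 1.96 ± 0.250 FPKM. WRKY6, WRKY60 and WRKY46 followed at 1.3 ± 0.266, 1.176 ± 0.260 and 1.15 ± 0.106 FPKM, with overlapping libraries, and WRKY53 and WRKY40 were lowest at 0.640 ± 0.340 and 0.431 ± 0.150 FPKM. In the control local leaf of the 3WT chain WRKY70 was again highest at 101 ± 1.66 FPKM and WRKY18 second at 50.1 ± 1.62 FPKM. WRKY54, WRKY40, WRKY11 and WRKY33 lay between 24.4 and 27.3 FPKM and could not be ordered beyond their spread. WRKY46 and WRKY53 had 13.2 ± 0.830 and 13 ± 0.394 FPKM, WRKY6 8.73 ± 0.486 FPKM and WRKY60 6.62 ± 0.679 FPKM. The contact and chain tables were treated as normalized separately, so these levels stand side by side without a test. No group of the chain experiment is labelled untouched, and WRKY18 had 32.7 to 125 FPKM over its 48 libraries, against 1.76 to 17.5 FPKM over the 9 contact libraries.

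The light comparisons ask how the lit leaf and the unlit leaves of the chain respond to 30 min of elevated light. In the lit leaf of the WT-hpca1-WT chain 3 of the 10 WRKY genes were higher and 5 lower, with 62.5% of all genes called. In the lit leaf of the 3WT chain all 10 were called, 7 higher and 3 lower, with 59.3% of all genes called, so a count of calls says little there. The median of all genes was -0.19 (log2) for lit leaves in the WT-hpca1-WT chain, -0.16 for those of the 3WT chain, and some values are also given relative to the median of all genes. Scaling each library by the median of gene ratios brought these medians to -0.005 and -0.007. With it, 47.4% of the called genes of the WT-hpca1-WT chain were lower, against 78.2% as deposited, and 45.5% of those of the 3WT chain, against 76.3%. The WRKY genes then split 5 higher and 3 lower in the WT-hpca1-WT chain, and 7 higher and 2 lower in the 3WT chain.

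WRKY40 had the largest rise in both lit leaves. In the WT-hpca1-WT chain it had 47.9, 48.4 and 47.6 FPKM in lit leaves, against 22.2, 18.8 and 22.9 FPKM in control leaves. In the 3WT chain it had 101, 110 and 98.7 FPKM in lit leaves, against 24.4, 25.1 and 26.5 FPKM in control leaves. Lit and control leaves were fully separated in both chains. The log2 fold changes were 1.14 ± 0.066 (adjusted p = 1.69e-17) in the WT-hpca1-WT chain and 1.98 ± 0.066 (adjusted p = 6.02e-25) in the 3WT chain, a 2.25-fold and a 4.08-fold ratio of means. The light response of the WT-hpca1-WT chain minus that of the 3WT chain was -0.84 ± 0.093 (log2 interaction, limma adjusted p = 6.09e-09).

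WRKY33 behaved likewise. It had 43.4, 42.5 and 44.0 FPKM in lit leaves of the WT-hpca1-WT chain, against 28.8, 26.8 and 27.7 FPKM in its control leaves (0.62 ± 0.093, adjusted p = 3.92e-07). Lit leaves of the 3WT chain had 81.0, 86.0 and 80.4 FPKM, against 25.2, 25.5 and 24.5 FPKM in control leaves (1.68 ± 0.093, adjusted p = 4.77e-18). Lit and control leaves did not overlap in either chain, and the difference of the responses was -1.06 ± 0.13 (adjusted p = 7.8e-08). WRKY18 had 83.9, 84.8 and 85.4 FPKM in lit leaves of the WT-hpca1-WT chain, against 56.7, 56.1 and 53.4 FPKM in control leaves, and 121, 121 and 125 FPKM, against 49.3, 52.0 and 49.1 FPKM, in the 3WT chain. It rose in both (0.60 and 1.27), and the interaction was -0.67 ± 0.072 (adjusted p = 2.81e-09).

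For WRKY46 and WRKY53, both of group III, the difference between chains was largest. WRKY53 had 14.4, 16.8 and 13.5 FPKM in lit leaves of the WT-hpca1-WT chain, overlapping the 14.6, 16 and 14.9 FPKM of its control leaves (-0.031 ± 0.071, adjusted p = 0.725). WRKY53 in the 3WT chain had 34.5, 36.4 and 35.0 FPKM in lit leaves, against 13, 13.4 and 12.6 FPKM in control leaves (1.38 ± 0.071, adjusted p = 6.36e-19), and the interaction was -1.41 ± 0.10 (adjusted p = 1.5e-13). With median-of-ratios scaling WRKY53 was called higher in the lit leaf of the WT-hpca1-WT chain, by 0.17 (adjusted p = 0.0405), so a lack of response there is not established. WRKY46 had 17.1, 16.1 and 15.9 FPKM in lit leaves of the WT-hpca1-WT chain, below the 21.6, 21.0 and 21.7 FPKM of control leaves in every library. The order was the opposite in the 3WT chain, 27.4, 30.4 and 29.6 FPKM in lit leaves, against 14.2, 12.8 and 12.7 FPKM in control leaves. The log2 changes were -0.37 ± 0.073 (adjusted p = 4.26e-05), no longer called with median-of-ratios scaling, and 1.08 ± 0.073 (adjusted p = 1.92e-15), with an interaction of -1.45 ± 0.10 (adjusted p = 1.43e-13).

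WRKY54, WRKY70 and WRKY60 were lower in lit leaves of both chains. WRKY70 had 63.0, 62.8 and 65.9 FPKM in lit leaves of the WT-hpca1-WT chain, against 162, 157 and 157 FPKM in control leaves (-1.3 ± 0.034, adjusted p = 2.24e-28). In the 3WT chain WRKY70 had 60.2, 62.0 and 62.3 FPKM in lit leaves, against 98.8, 101 and 102 FPKM in control leaves (-0.70 ± 0.034, adjusted p = 9.73e-20). Lit leaves had 60.2 to 65.9 FPKM over both chains, and the interaction of -0.60 ± 0.048 (adjusted p = 2.84e-12) sat beside control leaves that were 0.65 ± 0.034 (log2) higher in the WT-hpca1-WT chain (adjusted p = 1.03e-17). WRKY54 had 15.5, 16.4 and 16 FPKM in lit leaves of the WT-hpca1-WT chain, against 36.9, 39.5 and 38.5 FPKM in control leaves, and 14.5, 14.3 and 12.7 FPKM, against 24.7, 26.9 and 27.3 FPKM, in the 3WT chain. It fell in both (-1.21 and -0.88), with control leaves 0.53 higher in the WT-hpca1-WT chain and an interaction of -0.33 ± 0.078 (adjusted p = 0.00214). WRKY60 had 3.47, 2.48 and 3.33 FPKM in lit leaves of the WT-hpca1-WT chain, against 7.59, 7.0 and 6.78 FPKM in control leaves (-1.0 ± 0.098, adjusted p = 5.01e-11). Its smaller fall in the 3WT chain (-0.32 ± 0.098, adjusted p = 0.00499) was -0.16 relative to the median of all genes and was not called with either scaling.

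WRKY6 and WRKY11 moved least among the 7 genes that rose in the lit leaf of the 3WT chain. WRKY11 had 31.4, 31.3 and 26.6 FPKM in lit leaves of the WT-hpca1-WT chain, against 26.2, 27.3 and 27.9 FPKM in control leaves, with overlap (0.13 ± 0.065, adjusted p = 0.0917), and was called higher there with either scaling. WRKY11 in the 3WT chain had 38.7, 43.2 and 38.6 FPKM in lit leaves, against 25.2, 24.9 and 25.4 FPKM in control leaves (0.65 ± 0.065, adjusted p = 7.63e-11). WRKY6 had 6.30, 6.15 and 7.24 FPKM in lit leaves of the WT-hpca1-WT chain, against 7.78, 7.70 and 7.15 FPKM in control leaves. That change, -0.18 ± 0.078 (adjusted p = 0.0471), was 0.009 relative to the median of all genes and turned to 0.011 and 0.033 with the scalings, so no direction is given for it. WRKY6 in the 3WT chain had 11.5, 12.5 and 12.4 FPKM in lit leaves, against 8.53, 8.38 and 9.29 FPKM in control leaves (0.43 ± 0.078, adjusted p = 1.29e-05). The interactions were -0.61 ± 0.11 for WRKY6 and -0.53 ± 0.092 for WRKY11.

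**Figure D2:**
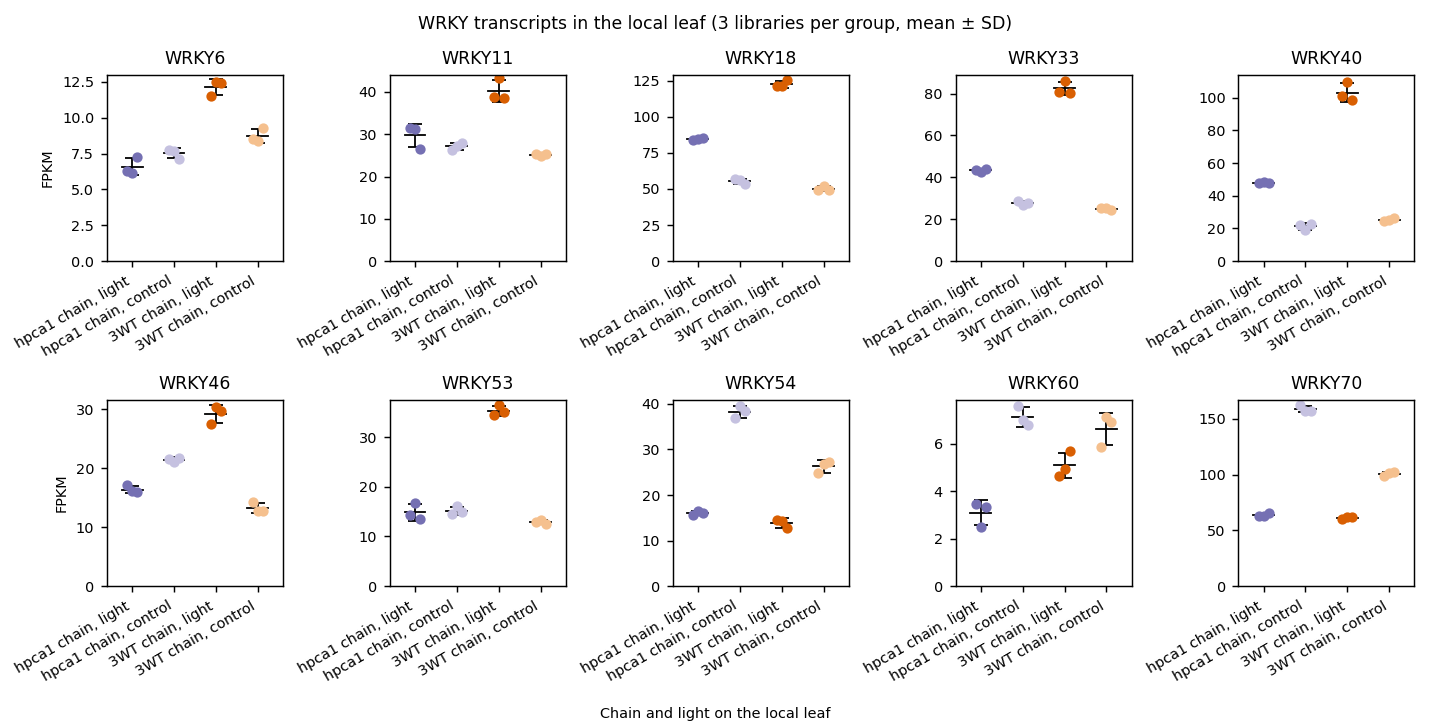
FPKM of each WRKY gene (y axis, from 0) in the local leaf of the WT-hpca1-WT chain (purple) and the 3WT chain (orange), each with elevated light left of control (x axis); points are libraries, lines means and bars 1 SD of 3 libraries. WRKY33, WRKY40, WRKY46 and WRKY53 are highest in lit leaves of the 3WT chain, and WRKY54 and WRKY70 are highest in control leaves of the WT-hpca1-WT chain.

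Across the set, the interaction in the lit leaf was called for 10 of 10 genes, all negative, where 15.3% of all genes tested were called and 9.79% were called lower. For WRKY54, WRKY60 and WRKY70 a negative value stands for a larger fall in the WT-hpca1-WT chain, and not for a weaker response. The median interaction of the 10 was -0.67, against -0.032 over all genes. The count was 10 with either scaling and without any 1 of the 12 libraries. The lit leaf was labelled wild type in both chains, which differed in the genotype of the middle plant. The difference had parts on both sides: in control light 4 of the 10 were higher and 1 lower in the local leaf of the WT-hpca1-WT chain, where 12.8% of all genes were called. WRKY46, WRKY54 and WRKY70 were higher there by 0.66, 0.53 and 0.65. WRKY53 was called higher by 0.21 and WRKY40 lower (-0.24), both lost in some leave-one-out fits (adjusted p up to 0.196 and 0.149 over all alternatives). The control leaves of the other 5 genes were not called different. Without 3WT control replicate 3, or without WT-hpca1-WT control replicate 2, the count of 5 was 3.

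Related lists were counted in the same lit leaves, where 62.5% (WT-hpca1-WT chain) and 59.3% (3WT chain) of all genes were called. Of 13 MAP kinase cascade genes 2 rose and 8 fell in the lit leaf of the WT-hpca1-WT chain, with 4 rising and 3 falling after median-of-ratios scaling. Their median log2 fold change there was -0.18, near the -0.19 of all genes. In the lit leaf of the 3WT chain 6 rose and 4 fell, with 8 rising and 1 falling after that scaling. The median there was 0.089, against -0.16 over all genes. AP2C1 rose in both, by 1.12 ± 0.073 in the WT-hpca1-WT chain and 1.49 ± 0.073 in the 3WT chain. Of 14 salicylate genes, 13 fell and none rose in the lit leaf of the WT-hpca1-WT chain (median -0.65, against -0.19), with 12 falling and 1 rising under either scaling, whereas 7 rose and 6 fell in the 3WT chain (8 and 5 after median-of-ratios scaling). PR1 fell to 52.0 ± 2.70 FPKM in lit leaves of the WT-hpca1-WT chain, against 188 ± 6.83 FPKM in its control leaves, and NIMIN1, an inhibitor of the salicylate receptor NPR1, to 5.95 ± 0.530, against 25.8 ± 2.59. The salicylate interaction was lower for 12 of 14 and higher for none. In control local leaves 11 of 14 were higher in the WT-hpca1-WT chain, NIMIN1 at 25.8 ± 2.59 FPKM, against 10.06 ± 0.676 FPKM in the 3WT chain. Among 34 tested other WRKY genes, 6 rose and 17 fell in the lit leaf of the WT-hpca1-WT chain, with 9 rising and 10 falling after median-of-ratios scaling. In that of the 3WT chain 7 rose and 17 fell, with 9 rising and 11 falling after it. The medians of these other WRKY genes were near those of all genes, -0.22 against -0.19 in the WT-hpca1-WT chain and -0.24 against -0.16 in the 3WT chain. WRKY62, WRKY38 and WRKY51 fell in the WT-hpca1-WT chain, WRKY38 to 3.54 ± 0.731 FPKM in lit leaves, against 12.4 ± 0.574 FPKM in control leaves. WRKY30, WRKY48 and WRKY22 rose in the 3WT chain, WRKY30 to 8.34 ± 0.604 FPKM in lit leaves, against 2.04 ± 0.305 FPKM in control leaves. Clock genes changed as well, with 3 of 8 higher and 5 lower in each lit leaf. ELF4 had 0.966 ± 0.382 FPKM in lit leaves of the WT-hpca1-WT chain, against 11.2 ± 0.141 FPKM in control leaves. The clock genes split much alike in unlit leaves. At systemic leaves 1, 2 and 3 of the WT-hpca1-WT chain 3, 2 and 3 were higher and 5, 4 and 5 lower. In the 3WT chain 3 were higher at each of these leaves, and 4, 5 and 4 were lower. The part of the clock genes in the WRKY changes of lit and unlit leaves was not tested. Leaves were measured in bulk, so fewer cells of a type and less RNA per cell cannot be told apart.

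In the unlit leaves most of the called changes were falls. In the WT-hpca1-WT chain 7 of the 10 WRKY genes fell and none rose at systemic leaf 1, 2 fell and 1 rose at leaf 2, and 4 fell and 2 rose at leaf 3, where 29.5%, 17.9% and 27.5% of all genes were called (20.1% lower at leaf 1). In the 3WT chain 4 fell and none rose at leaf 1, 9 fell and none rose at leaf 2, and 4 fell and 1 rose at leaf 3, where 14.8%, 41.2% and 23.0% of all genes were called (7.58% lower at leaf 1 and 32.7% lower at leaf 2). For leaf 2 of the 3WT chain the all-gene median was -0.12, 79.3% of all called genes were lower (47.2% after median-of-ratios scaling), and 6 of the 10 WRKY genes were called lower after that scaling. The response of the lit leaf differed from the mean response of the 3 unlit leaves for 8 of 10 genes of the WT-hpca1-WT chain (4 higher, 4 lower) and for 9 of 10 of the 3WT chain (7 higher, 2 lower). Of all genes, 50.3% and 47.2% were called in these comparisons. In the WT-hpca1-WT chain 77.4% of all called genes were lower (45.3% after median-of-ratios scaling), and in the 3WT chain 70.6% (45.5%). The split of the WRKY genes in the WT-hpca1-WT chain was 5 higher and 3 lower with median-of-ratios scaling and 4 higher and 3 lower with quantile normalization, and that in the 3WT chain was 7 and 2 with either. WRKY6 was the gene whose lower call (-0.32, adjusted p = 0.00323) was lost with both scalings (-0.17 with each, adjusted p = 0.154 and 0.149), and it was -0.17 relative to the median of all genes. WRKY53 was called higher with median-of-ratios scaling (0.24, adjusted p = 0.0175).

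WRKY18, which rose in both lit leaves, fell at every unlit position. Its log2 changes were -0.66, -0.64 and -0.70 at systemic leaves 1, 2 and 3 of the WT-hpca1-WT chain (-0.66 at leaf 3 without the control library that stood apart), and -0.71, -0.67 and -0.32 in the 3WT chain, with a highest adjusted p of 5.1e-06. At systemic leaf 1 it had 39.4, 35.7 and 34.4 FPKM with elevated light, against 56.7, 60.2 and 57.9 FPKM in control leaves of the WT-hpca1-WT chain. In the 3WT chain leaf 1 had 38.4, 43.8 and 44.6 FPKM, against 68.8, 71.8 and 68.0 FPKM. Light and control leaves did not overlap at any of the 6 unlit positions, and no alternative fit other than a minimum change of 1 (log2) ended a call. The lit-leaf response exceeded the mean unlit response by 1.27 ± 0.058 in the WT-hpca1-WT chain (adjusted p = 2.92e-20, and 1.26 without that library) and by 1.84 ± 0.058 in the 3WT chain (adjusted p = 1.89e-25).

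WRKY40, its partner, fell at leaf 1 of both chains (-0.46 in the WT-hpca1-WT chain and -0.52 in the 3WT chain). At leaf 3 the chains parted: in the WT-hpca1-WT chain it had 20.0, 18.8 and 20.1 FPKM with elevated light, against 16.1, 14.3 and 13.6 FPKM in control leaves, a rise of 0.40 ± 0.066 (adjusted p = 6.83e-06, and 0.35 without the control library that stood apart). In the 3WT chain it had 20.9, 18.2 and 21.0 FPKM, against 24.1, 25.9 and 24.8 FPKM, a fall (-0.30 ± 0.066, adjusted p = 0.000516). With elevated light the libraries of the 2 chains overlapped at leaf 3, while the control leaves of the WT-hpca1-WT chain were lower than those of the 3WT chain by a log2 change of -0.73 ± 0.066 (adjusted p = 3.58e-11, and -0.68 without that library). The interaction was 0.70 ± 0.093 (adjusted p = 3.96e-07), and 0.66 without it.

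**Figure D3:**
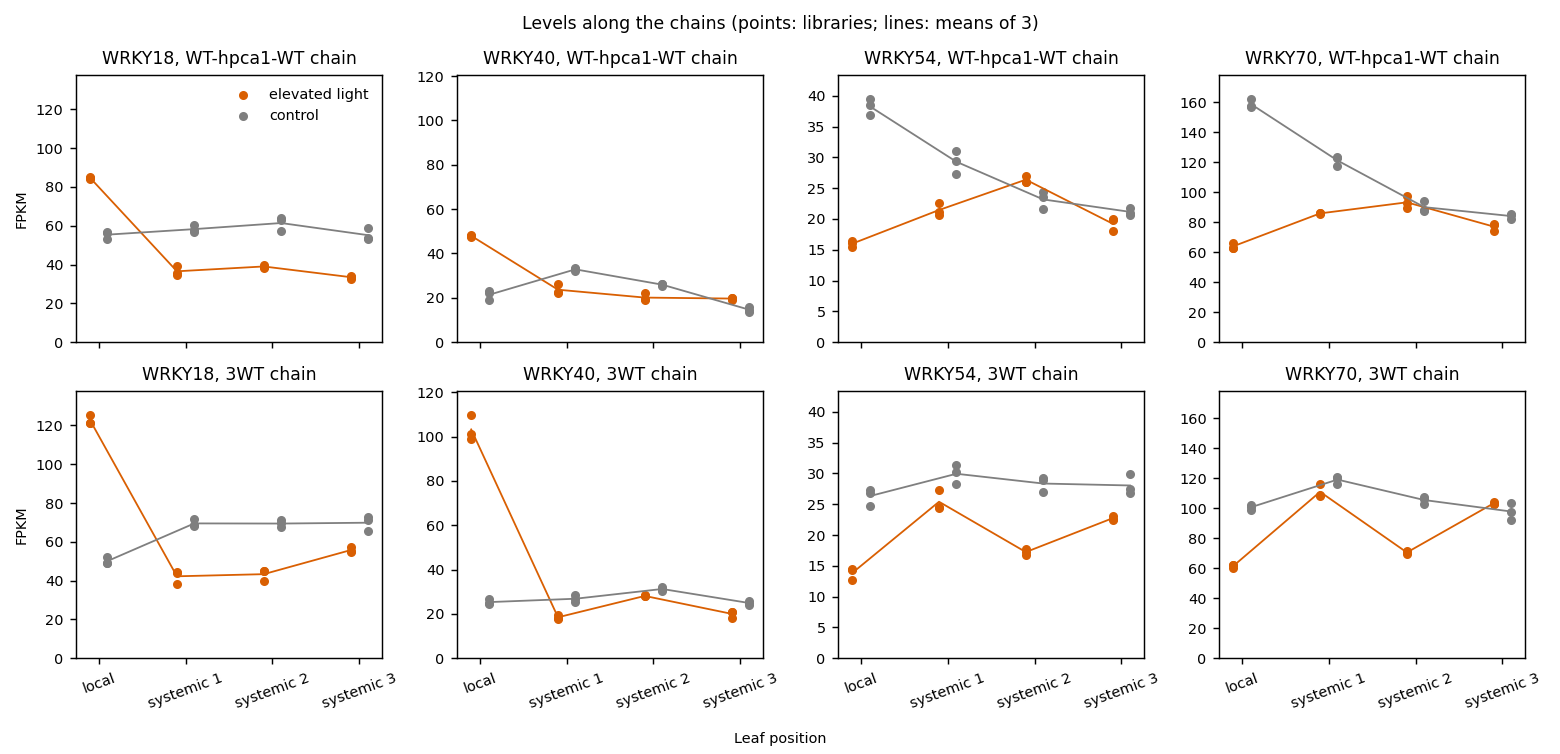
FPKM of WRKY18, WRKY40, WRKY54 and WRKY70 (y axis, from 0) at the 4 leaf positions (x axis) of the WT-hpca1-WT chain (top) and the 3WT chain (bottom), with elevated light (orange) left of control (grey); points are libraries and lines join means of 3. WRKY18 is above control in the lit local leaf and below it at every systemic leaf of both chains.

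WRKY54 and WRKY70 fell together in the WT-hpca1-WT chain at leaf 1 (-0.43 and -0.49), and at leaf 1 of the 3WT chain (log2 changes of -0.23 and -0.10). The last was lost without replicate 1 or 3 of either group (adjusted p up to 0.172). At leaf 2 of the 3WT chain WRKY70 had 71.3, 71.1 and 69.2 FPKM with elevated light, against 106, 107 and 103 FPKM in control leaves (-0.57 ± 0.034, adjusted p = 1.31e-16, and -0.46 relative to all genes). In the hpca1-1 leaf at the same position it had 89.5, 97.2 and 92.9 FPKM, against 88.4, 87.6 and 94.0 FPKM, with overlap (0.050 ± 0.034, adjusted p = 0.358). WRKY46 fell at leaf 1 of the WT-hpca1-WT chain to 12.9, 15.5 and 13.4 FPKM, against 23.1, 22.8 and 23.9 FPKM in control leaves (-0.71 ± 0.073). At leaf 1 of the 3WT chain WRKY46 libraries overlapped (0.081 ± 0.073), and the interaction was -0.79 ± 0.10 (adjusted p = 1.23e-07).

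WRKY33 and WRKY11 also responded differently at leaf 1, with interactions of -0.52 ± 0.13 and -0.38 ± 0.092. WRKY11 had 20.1, 22.4 and 19.9 FPKM with elevated light, against 26.3, 26.2 and 25.8 FPKM in control leaves of the WT-hpca1-WT chain, and 27.9, 27.7 and 26.1 FPKM, against 26.9, 26.7 and 24.3 FPKM, in the 3WT chain. In all, 4 of 10 interactions were called at leaf 1, all negative, where 23.2% of all genes were called and 15.4% were called lower. At leaf 3, WRKY53 fell in the WT-hpca1-WT chain to 8.20, 7.99 and 6.80 FPKM, against 12, 10.6 and 10.5 FPKM in control leaves (-0.47 ± 0.071, adjusted p = 1.32e-06, and -0.51 without the control library that stood apart). WRKY6 was called higher there (0.26 ± 0.078), but not without the same library (0.10, adjusted p = 0.305). WRKY33 had 19.9, 16.7 and 17.4 FPKM with elevated light, against 20.7, 20.6 and 12.3 FPKM in control leaves. Its change was 0.043 ± 0.093 (adjusted p = 0.788), and -0.19 (adjusted p = 0.00819) without that control library of 12.3 FPKM. WRKY60 rose at leaf 3 of the 3WT chain (0.30 ± 0.098, adjusted p = 0.0237), a call that leaving out control replicate 1 or 2, or elevated-light replicate 1 or 2, ended.

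**Figure D4:**
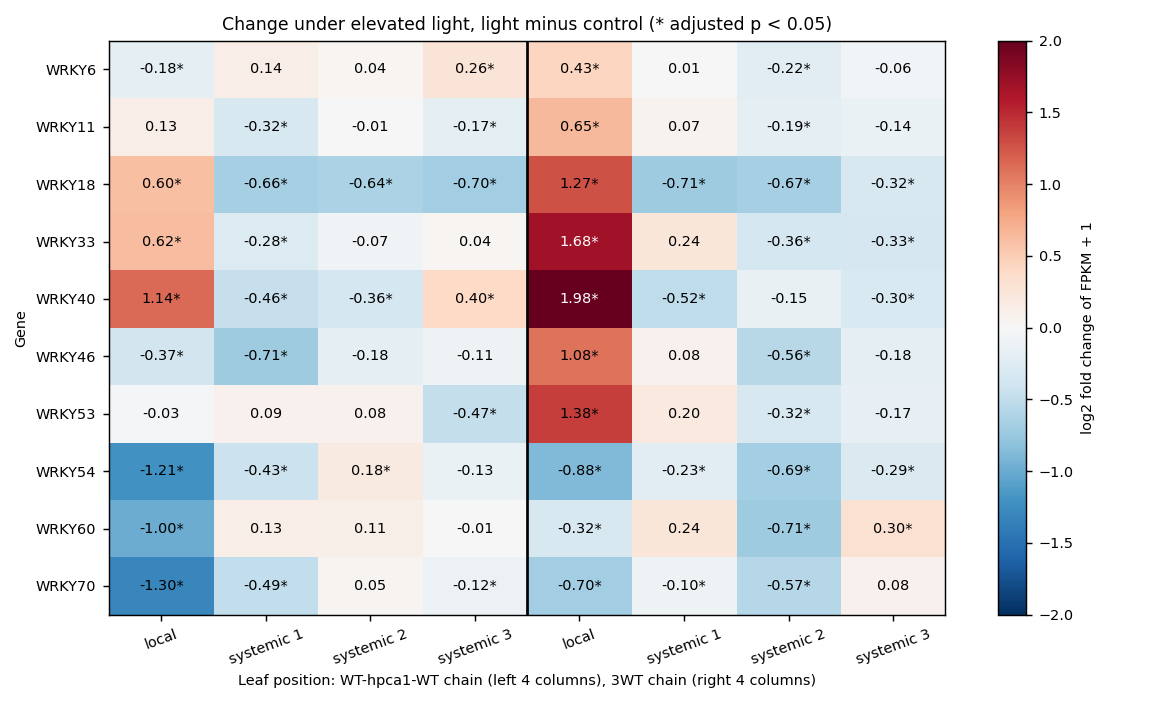
Log2 fold change of FPKM + 1 with elevated light relative to control (colour, red higher and blue lower) for the 10 WRKY genes (rows) at the 4 leaf positions of the WT-hpca1-WT chain (left) and the 3WT chain (right); an asterisk marks an adjusted p under 0.05. WRKY40 has the highest value, 1.98, in the lit leaf of the 3WT chain, and WRKY18 is blue at all 6 systemic positions.

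Systemic leaf 2 is the position where the chains differ in the genotype of the sampled leaf itself. In control light 7 of the 10 WRKY genes were lower in hpca1-1 than in the wild-type leaf and none was higher, where 20.3% of all genes were called and 12.5% were called lower. WRKY46 had 12.7, 10.6 and 11.8 FPKM in hpca1-1, against 18.0, 19.1 and 18.0 FPKM in the wild type (-0.61 ± 0.073, adjusted p = 3.27e-08). WRKY53 had 9.47, 10.4 and 11.4 FPKM in hpca1-1, against 14.6, 15.7 and 14.9 FPKM (-0.50 ± 0.071, adjusted p = 1.09e-06). Neither gene overlapped between genotypes. WRKY60, WRKY54, WRKY40, WRKY70 and WRKY18 had log2 differences of -0.46, -0.28, -0.26, -0.23 and -0.18, and the last was lost without replicate 3 of either group (adjusted p up to 0.106 over all alternatives). At systemic leaf 3, wild type in both chains, 8 of the 10 were lower in the WT-hpca1-WT chain and none higher, where 17.3% of all genes were called and 11.6% were called lower, with WRKY40 at -0.73 (-0.68 without the control library that stood apart). That count was 3 when only the pair of groups entered the fit. Without that library WRKY11 was no longer called there (adjusted p = 0.112), and WRKY33 was -0.21, against -0.45 with it. At leaf 1, where 15.1% of all genes were called, WRKY40 and WRKY46 were higher (0.28 and 0.42) and WRKY6, WRKY18 and WRKY53 lower (-0.36, -0.25 and -0.30).

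With elevated light the interaction at this leaf (hpca1-1 minus wild type) was called positive for 5 of the 10 genes and negative for none, where 18.8% of all genes were called and 13.0% were called higher. The interactions were 0.87 ± 0.078 for WRKY54, 0.83 ± 0.14 for WRKY60, 0.62 ± 0.048 for WRKY70, 0.40 ± 0.10 for WRKY53 and 0.38 ± 0.10 for WRKY46. Each of these genes was called lower with elevated light in the wild-type leaf, and each was lower in hpca1-1 in control light. Of these 5 genes only WRKY54 was called in the hpca1-1 leaf. The changes there were 0.11 for WRKY60, 0.050 for WRKY70, 0.080 for WRKY53 and -0.18 for WRKY46. WRKY18 and WRKY40, whose interactions were not called, were lower there with elevated light (-0.64 and -0.36, limma adjusted p = 1.5e-12 and 9.42e-05). With median-of-ratios scaling the interaction of WRKY46 was no longer called (adjusted p = 0.0584). The interactions called with that scaling were higher for 4 genes and lower for 1, WRKY40 (-0.30, adjusted p = 0.0197). WRKY54 had the largest of these interactions. Its hpca1-1 leaves had 26.0, 27.0 and 26.1 FPKM with elevated light, against 21.5, 23.6 and 24.4 FPKM in control light. Wild-type leaves had 17.8, 17.2 and 16.7 FPKM, against 26.9, 28.9 and 29.3 FPKM. The wild-type leaf fell by 0.69 (log2) and the hpca1-1 leaf was called higher by 0.18, which was lost without control replicate 1 or elevated-light replicate 2 (adjusted p up to 0.145 over all alternatives). WRKY60 had 6.25, 6.75 and 6.82 FPKM in hpca1-1 leaves with elevated light, against 5.37, 6.47 and 6.31 FPKM in control light, with overlap. In wild-type leaves it had 5.04, 4.59 and 5.06 FPKM, against 7.85, 9.37 and 8.83 FPKM (-0.71 ± 0.098, adjusted p = 2.27e-07). Of 14 salicylate genes 11 were also lower in hpca1-1 in control light and none higher, PR1 at 99.9 ± 11.1 FPKM, against 147 ± 8.22 FPKM in the wild type. Their interaction was higher for 10 of 14 and lower for none. The same held at systemic leaf 3, where the sampled leaf was wild type in both chains. There 13 of 14 were lower in control leaves of the WT-hpca1-WT chain and none higher, with 11.6% of all genes called lower. The interaction at leaf 3 was higher for 8 of 14 and lower for none. Clock genes differed at this position in control light too, 5 of 8 higher in hpca1-1 (3 without wild-type replicate 1 or hpca1-1 replicate 2), PRR5 at 25.2 ± 1.32 FPKM, against 12.3 ± 0.944 FPKM. At the positions that were wild type in both chains, clock genes were also higher in control leaves of the WT-hpca1-WT chain. These were 4 of 8 in the local leaf, 2 at leaf 1 and 4 at leaf 3, with none lower. The part of the clock genes was not tested.

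**Figure D5:**
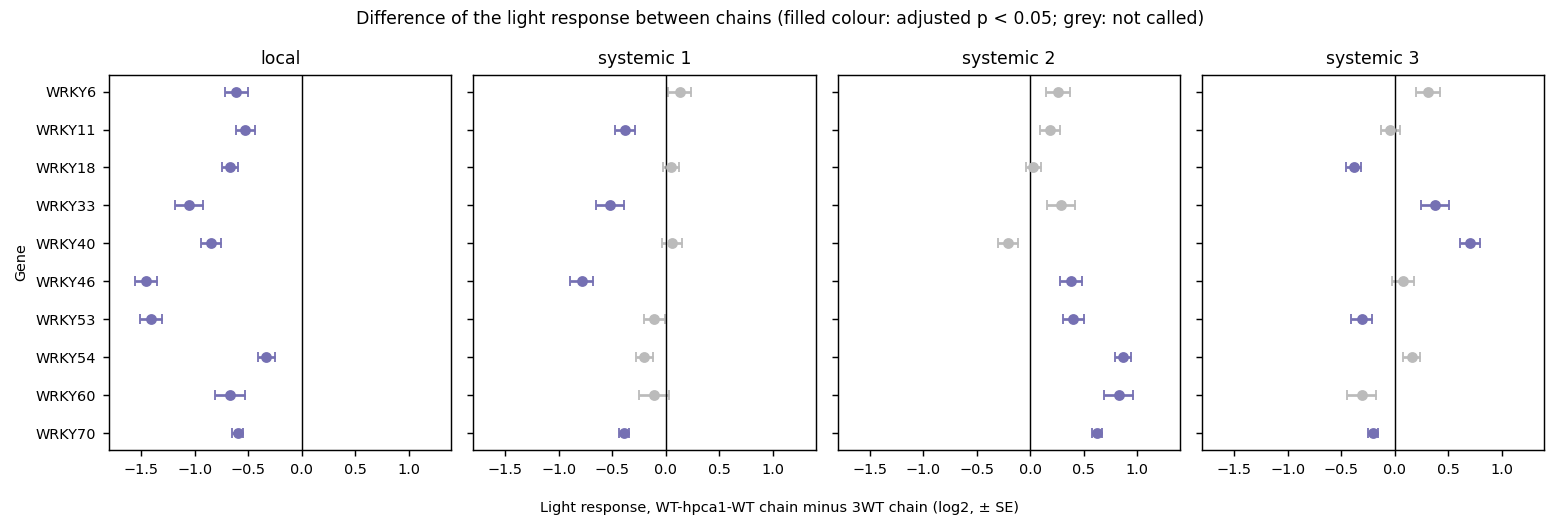
Difference of the light response, WT-hpca1-WT chain minus 3WT chain (x axis, log2, bars 1 SE), for each WRKY gene (y axis) at each leaf position (panels); purple marks an adjusted p under 0.05 and grey a difference that was not called. All 10 genes lie below 0 in the local leaf, from -1.45 for WRKY46 to -0.33 for WRKY54, and 5 lie above 0 and are called at systemic leaf 2.

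At systemic leaf 3, 5 of 10 interactions were called, WRKY40 and WRKY33 higher and WRKY18, WRKY53 and WRKY70 lower, where 14.1% of all genes were called. WRKY33 (0.38 ± 0.13, adjusted p = 0.0494) was 0.14 without the control library that stood apart (adjusted p = 0.256). Without it the other called interactions were 0.66 for WRKY40, -0.34 for WRKY18, -0.34 for WRKY53 and -0.22 for WRKY70, all still called. The call of WRKY53 was lost without control replicate 1 or elevated-light replicate 3 of either chain (limma adjusted p up to 0.135). With only the groups compared in the fit, WRKY53 and WRKY70 were not called (adjusted p = 0.11 and 0.058). The count was 3 without control replicate 1 or elevated-light replicate 3 of the 3WT chain, or without elevated-light replicate 3 of the WT-hpca1-WT chain, and at most 6 without any other library. Of the 8 camalexin and ethylene genes downstream of WRKY33, all 8 were lower in control leaves of the WT-hpca1-WT chain at this position (7 with either scaling), and all 8 interactions were higher (7 to 8 without any 1 library). CYP79B2, an enzyme at the start of the camalexin route, had 91.3 ± 2.30 FPKM with elevated light in the WT-hpca1-WT chain, against 45.0 ± 2.35 FPKM in control leaves. Leaves of the 3WT chain had 108 ± 3.14 FPKM with elevated light, against 69.1 ± 1.49 FPKM in control leaves (SD, n = 3 each).

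Over the 16 group means of the chain table, the 10 genes fell into patterns that were described by Pearson's r with no test, over groups that came from the same chains. WRKY54 and WRKY70 were most alike (r = 0.96), followed by WRKY11 and WRKY33 (0.948), WRKY33 and WRKY53 (0.907) and WRKY33 and WRKY40 (0.904). Between WRKY40 and WRKY54 r was -0.521, and between WRKY40 and WRKY70 it was -0.484. Among 12468 other genes, those most like WRKY40 were PUB23, a ubiquitin ligase that dampens immune signalling (r = 0.979), AT1G76600 (0.966) and RBOHD, the oxidase that makes extracellular superoxide (0.961). Those most like WRKY33 were AT3G26910 (0.977), WRKY15 (0.971) and AT5G25930 (0.967), and for WRKY53 PUB24 (0.943) came first. For WRKY54 it was GRXS13, a glutaredoxin (0.953), for WRKY70 AT4G22530 (0.956), for WRKY11 CAD1 (0.974), for WRKY6 AT1G15030 (0.861), for WRKY18 AT5G36290 (0.942), for WRKY46 AT5G52760 (0.95) and for WRKY60 AT5G64010 (0.911).

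The strand setting of the authors' quantification is not given in the sources used here, so reads of 3 genes could be shared with a gene on the other strand. WRKY33 overlaps AT2G08965, a long non-coding RNA, over 272 bases and AT2G38480 over 26, WRKY40 overlaps AT1G80850 over 51 bases, and WRKY53 overlaps AT4G23800 over 341 bases. AT2G08965 was listed at 0 in every contact library and reached at most 6.74 FPKM in the chain table. It was called higher in both lit leaves (log2 fold changes of 1.84 in the WT-hpca1-WT chain and 2.25 in the 3WT chain), alongside WRKY33. AT2G38480 was called higher there too (0.67 and 0.38). AT1G80850 was called in neither lit leaf. At systemic leaf 1, where WRKY40 fell in both chains, AT1G80850 was lower in the WT-hpca1-WT chain (-0.60) and higher in the 3WT chain (0.29). AT4G23800 was called lower in the lit leaf of the 3WT chain (-0.81), where WRKY53 rose. AT4G23800 stayed at or under 3.05 FPKM in the chain table, where WRKY53 had 34.5 to 36.4 FPKM in lit leaves of the 3WT chain. In the contact table the overlapping genes were above the low WRKY genes. AT4G23800 had a median of 2.30 FPKM there, above the 1.12 to 1.46 FPKM of WRKY53 after 1 week and its 0.314 to 0.992 FPKM in individual plants. AT1G80850 had a median of 12.1 FPKM, above the 0.819 to 1.80 FPKM of WRKY40 after 1 week and its 0.267 to 0.561 FPKM in individual plants. AT2G38480 had a median of 8.27 FPKM, between the levels of WRKY33 after 1 h and in individual plants. None of the 3 was called at 1 h or at 1 week of contact (adjusted p from 0.0848 to 0.815), and the part of shared reads in the WRKY values was not tested.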

How the data were processed

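RNA was sequenced from 57 leaf libraries in 19 groups of 3, in a contact table of 9 libraries and a chain table of 48. The values are FPKM as deposited by the authors. The submitters' processing notes name Trim Galore 0.6.10, FastQC 0.12.1, HISAT2 2.2.1, SAMtools 1.18, Cufflinks 2.2.1, Cuffdiff 2.2.1 and the build TAIR10, without roles or order, and the annotation, filters and strand setting are not given in the sources used here. Columns write HL where the labels write EL for elevated light. The files give no counts, so fragment totals are unknown and no counting interval is given. A value listed at 0 may be an estimate that failed.

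Within each table, genes reaching 1 FPKM in 3 or more libraries were tested with limma 3.58.1 (R 4.3.3) on log2(FPKM + 1), with eBayes trend, all groups of the table in 1 fit and Benjamini-Hochberg adjustment over all genes tested. The interaction is the light response of the WT-hpca1-WT chain minus that of the 3WT chain. The script was tested on simulated data. p-values measure the spread between pools of plants, which the extraction protocol calls biological repeats. Of 32824 identifiers, 32539 matched RefSeq TAIR10.1, which supplied symbols, coordinates and promoter sequence. Likeness used Pearson's r over 16 group means and the 3 genes with the highest r. From each list at most 3 genes per comparison are named, those with the largest absolute log2 fold change among genes called, with a mean of at least 5 FPKM in the higher group and no overlap of libraries. The WRKY genes and the lists were chosen with earlier results of these data known.

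Alternatives were a pseudocount of 0.1, a filter of 5 FPKM, no filter, median-of-ratios scaling, quantile normalization, eBayes without trend, a replicate block, only the groups compared, a minimum change of 1 (log2) and each library left out.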

Additional observations from a re-analysis of the deposited data

Results flagged for a closer look

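Differences between responses that passed an adjusted p under 0.05 (limma) were collected for the 10 WRKY genes. In the local leaf, the light response of the WT-hpca1-WT chain minus that of the 3WT chain was -1.45 for WRKY46, -1.41 for WRKY53, -1.06 for WRKY33 and -0.84 for WRKY40. It was -0.67 for WRKY18 and for WRKY60, -0.61 for WRKY6, -0.6 for WRKY70, -0.53 for WRKY11 and -0.33 for WRKY54. At systemic leaf 1 it was -0.79 for WRKY46, -0.52 for WRKY33, -0.39 for WRKY70 and -0.38 for WRKY11. At systemic leaf 2, hpca1-1 in the WT-hpca1-WT chain, it was 0.87 for WRKY54, 0.83 for WRKY60, 0.62 for WRKY70, 0.4 for WRKY53 and 0.38 for WRKY46. At systemic leaf 3 it was 0.7 for WRKY40, 0.38 for WRKY33, -0.38 for WRKY18, -0.31 for WRKY53 and -0.2 for WRKY70.

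The response of the lit leaf minus the mean response of the 3 unlit leaves also differed from 0. In the WT-hpca1-WT chain it was 1.28 for WRKY40, 1.27 for WRKY18, 0.73 for WRKY33, 0.29 for WRKY11, -0.32 for WRKY6, -1.07 for WRKY60, -1.08 for WRKY54 and -1.11 for WRKY70. In the 3WT chain it was 2.31 for WRKY40, 1.84 for WRKY18, 1.83 for WRKY33, 1.47 for WRKY53, 1.3 for WRKY46, 0.74 for WRKY11, 0.52 for WRKY6, -0.48 for WRKY54 and -0.5 for WRKY70. The value of WRKY6 in the WT-hpca1-WT chain was -0.17 and no longer called with median-of-ratios scaling (adjusted p = 0.154) or quantile normalization (adjusted p = 0.149), so no direction is given for it. Without the control library that stood apart at systemic leaf 3, the values of the WT-hpca1-WT chain were 1.29 for WRKY40, 1.26 for WRKY18, 0.80 for WRKY33, 0.30 for WRKY11, -0.27 for WRKY6, -1.10 for WRKY60, -1.08 for WRKY54 and -1.1 for WRKY70, all still called.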

How the results depend on the processing

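The counts of WRKY genes called moved by over 1.5 times under 2 settings and a few left-out libraries. With only the groups compared in the fit, 3 genes were called for light at leaf 3 of the WT-hpca1-WT chain (6 with all groups), 2 for the interaction at leaf 3 (5), and 3 each for the control-light difference between chains in the local leaf (5) and at leaf 3 (8). With a minimum change of 1 (log2), 3 were called at 1 week of contact, 6 for 1 week against 1 h, 3 in the lit leaf of the WT-hpca1-WT chain, 5 in that of the 3WT chain, 5 for lit against unlit leaves in each chain, 3 for the interaction in the local leaf, and 0 for every other comparison of systemic leaves or of control leaves. Without any 1 library, the interaction count at leaf 3 ran from 3 to 6 and the control-light count in the local leaf from 3 to 5. Among changes called in the main or the alternative fit, directions changed for WRKY6 in the lit leaf of the WT-hpca1-WT chain (0.011 with median-of-ratios and 0.033 with quantile scaling), for WRKY53 there (0.171 with median-of-ratios scaling), and for WRKY33 at leaf 3 of that chain (-0.192 without control replicate 3, and up to 0.162 without another library, against 0.043). Where neither fit called the gene, the sign also changed 12 times under the alternative settings and 30 times with a library left out. The cause was not tested.

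Within the comparisons of contact groups, light or chain, no consistent pairing of the groups by replicate number was seen. Correlations of same-numbered deviations ran from -0.233 to 0.315 (median 0.018), and 0 of 15 comparisons had all above 0.1. The control-light comparisons between chains came near this limit at leaf 2 (0.28, 0.154 and 0.099) and in the local leaf (0.132, 0.218 and 0.094). Some pairing there is therefore not excluded. Leaves at different positions of the same kind of chain were not examined in this way. Whether those leaves pair was not tested, and the comparisons of lit with unlit leaves took them as independent. With the replicate block the count at 1 week of contact was 6, against 8, as WRKY11 (adjusted p = 0.0619) and WRKY40 (adjusted p = 0.058) were no longer called, and WRKY6 in the lit leaf of the WT-hpca1-WT chain had an adjusted p of 0.0534. Depth is unknown, so no counting error can be given for low values such as those of WRKY40 and WRKY53 in individual plants.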
